A study of Homo sapiens with 7 samples.

Results

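The genes described here are 10 members of the heterogeneous nuclear ribonucleoprotein (hnRNP) family, of 16044 genes with sense-strand polyadenylation sites (PASs) in the 3 deposited count tables. They were chosen by symbol and are HNRNPA0, HNRNPA1, HNRNPA2B1, HNRNPA3, HNRNPC, HNRNPD, HNRNPF, HNRNPH1, HNRNPK and HNRNPU. All 10 had reads in each of the 7 libraries. Between 41 and 47 PASs were listed for them in a table, beside 34849 to 51882 PASs of all genes. The cells were HEK293, an established human embryonic kidney line, and every group was transfected with siRNA. The control group received a control siRNA (siCtrl), and the knockdown (KD) groups received siRNA against Star-PAP (gene TUT1), PAPα (PAPOLA), PAPγ (PAPOLG) or both PAPα and PAPγ. These are the nuclear poly(A) polymerases, and the comparisons ask how their loss affects the level and the PAS choice of mRNAs. Batch 1 held 1 library each of siCtrl, siStar-PAP, siPAPα and siPAPγ, made by 3′READS, which sequences the RNA end next to the poly(A) tail. The double KD (siPAPα+siPAPγ), also by 3′READS, stands in a table that repeats this siCtrl library. The labels do not say whether it was made together with that siCtrl, so a batch difference and the double KD cannot be told apart. Batch 2 consisted of 1 siStar-PAP library and its own siCtrl, made by 3′READS+, a later version of the protocol. A KD by siRNA leaves some of the targeted protein, and the labels do not say whether the libraries of a batch came from separate cultures.

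hnRNPs are abundant RNA-binding proteins that coat nascent transcripts in the nucleus. They influence splicing, 3′ end formation, export and decay of mRNA, and several shuttle between nucleus and cytoplasm. Many bind their own or each other's transcripts, and their 3′UTRs are often long and hold more than 1 PAS. A PAS is usually marked by the hexamer AAUAAA or a variant a short distance upstream of the cleavage site, which the poly(A) polymerases then extend.

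The PASs on which the results turn are shown first, as the 30 bases upstream of each site on the strand of the gene (hg19, the build of the tables, read from the GRCh37 genome), with the hexamer AATAAA or ATTAAA in capitals where the window holds it. Each site is named by its genomic distance from the stop codon, and all those shown lie in the 3′UTR exon of the gene in the GENCODE annotation.
HNRNPA0 site at 532 nt (chr5:137088307-137088336, minus strand): tatttttAATAAAtcattgtgtttgaccgt
HNRNPA0 site at 1576 nt (chr5:137087263-137087292, minus strand): ggatatcacaAATAAAgaattcaattcttt
HNRNPA1 site at 568 nt (chr12:54678635-54678664, plus strand): tcgtgacgctgAATAAAtgtctttttttta
HNRNPA1 site at 933 nt (chr12:54679000-54679029, plus strand): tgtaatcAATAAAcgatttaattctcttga
HNRNPC site at 286 nt (chr14:21679097-21679126, minus strand): acttaacAATAAAaaggatgtatggttttt
HNRNPC site at 677 nt (chr14:21678706-21678735, minus strand): tATTAAAccaggaatttggagaaaaaaaaa
HNRNPC site at 1839 nt (chr14:21677544-21677573, minus strand): ataagatgctAATAAAacctgtttaatatt
HNRNPD site at 1363 nt (chr4:83275125-83275154, minus strand): agaaatttgctttcattgttttatttctta
HNRNPD site at 2003 nt (chr4:83274485-83274514, minus strand): ttgagggaggATTAAAgaaatatataccgt
HNRNPF site at 615 nt (chr10:43881471-43881500, minus strand): tttttttcttaaAATAAAgactttttcaca
HNRNPH1 site at 1132 nt (chr5:179041416-179041445, minus strand): tgtctactATTAAAagtgaaacattttggc
HNRNPH1 site at 1368 nt (chr5:179041180-179041209, minus strand): tgtcaAATAAAtcctccttttaaaaactgc
HNRNPK site at 498 nt (chr9:86583825-86583854, minus strand): tatgatttttaaAATAAAtttagtgaacct
HNRNPK site at 1229 nt (chr9:86583094-86583123, minus strand): cttccaaataAATAAAacacccatgatgct
HNRNPU site at 39 nt (chr1:245017714-245017743, minus strand): ataaaacgaactgatacatatttctccaaa
HNRNPU site at 317 nt (chr1:245017436-245017465, minus strand): tatcacaacagaagtaaaatgttgctttgt
HNRNPU site at 3281 nt (chr1:245014472-245014501, minus strand): cattggatatAATAAAtggatgttttacaa
HNRNPU site at 4153 nt (chr1:245013600-245013629, minus strand): aataagcATTAAAagtactttgtccagcta

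Most of these windows hold the canonical AATAAA. Over the 40 bases upstream, AATAAA was found at 27 of the 40 last-exon PASs of the hnRNP genes in the batch 1 table (67.5%), against 46.3% of all last-exon PASs there. ATTAAA without AATAAA was found at 9 of the 40 (22.5%, against 15.8% of all), and 4 had neither. The trinucleotide ATA was present between 100 and 41 bases upstream at 28 of the 40 (70.0%, against 59.5%). PASs of 1 gene are not independent of each other, and these shares were not tested. The site of HNRNPC at 677 nt directly follows a run of genomic A, with 9 A among its last 10 bases. At least 9 A among the last 10 bases, unbroken or not, were found at 0.0347% of the sense PASs in the batch 1 table. The share was 0.141% in the double KD table and 2.80% in the batch 2 table. Among last-exon PASs it was 0.0345%, 0.165% and 1.25% in the same order.

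The tables held 2347192 to 16191098 sense reads per library, or 54.5% to 70.5% of the PASS reads, which are reads with untemplated Ts that mark a poly(A) tail. TUT1 had 83 reads in siCtrl and 2 in siStar-PAP of batch 1, and 6 and 4 reads in batch 2, too few to check that label. PAPOLA had 71 reads in siCtrl and 12 in siPAPα, and 78 and 8 in the double KD table. PAPOLG, with 5 reads in siCtrl and 15 in siPAPγ, cannot check the siPAPγ label. VIM, a marker of HEK293, had 340 to 2019 reads in every library, whereas NEFM had as few as 1 read and PAX2 and LHX1 had 0 in some, and the liver, blood and red cell markers ALB, PTPRC and HBB had none. The siCtrl reads at the 38 hnRNP PASs listed in both tables that hold this library were equal at all 38. With 1 library per condition in a batch, the comparisons within a table carry no test, intervals cover counting error only, and fewer cells and less RNA per cell cannot be told apart.

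Levels are given as PASS reads scaled to the library total (RPM), summed over the PASs of a gene. A 3′ end read does not depend on transcript length, but the ratio of siCtrl RPM in batch 2 to batch 1 differed by gene. It was 9.10-fold for HNRNPC and 0.715-fold for HNRNPD. The orders given here therefore describe reads in each library and not amounts of mRNA in the cell. In siCtrl of batch 1, HNRNPA1 was highest at 431 RPM, followed by HNRNPD at 190 RPM, HNRNPU at 122 RPM and HNRNPA0 at 104 RPM. HNRNPF (85.9 RPM) and HNRNPK (81.0 RPM) came next with overlapping intervals, then HNRNPA2B1 at 69.5 RPM and HNRNPH1 at 50.4 RPM. HNRNPA3 (38.0 RPM) and HNRNPC (31.3 RPM) were lowest and also overlapped. The order differed in siCtrl of batch 2, where HNRNPC (285 RPM, of which all but 16.0 RPM at the site at 677 nt) stood above HNRNPA0, HNRNPK and HNRNPD (136 RPM). HNRNPA1 was again highest there, at 2541 RPM, followed by HNRNPU at 793 RPM and HNRNPF at 588 RPM, and HNRNPH1 was lowest at 61.0 RPM. Neighbours with overlapping intervals were HNRNPK (147 RPM) and HNRNPD, and HNRNPA2B1 (103 RPM) and HNRNPA3 (87.0 RPM).

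**Figure D1:**
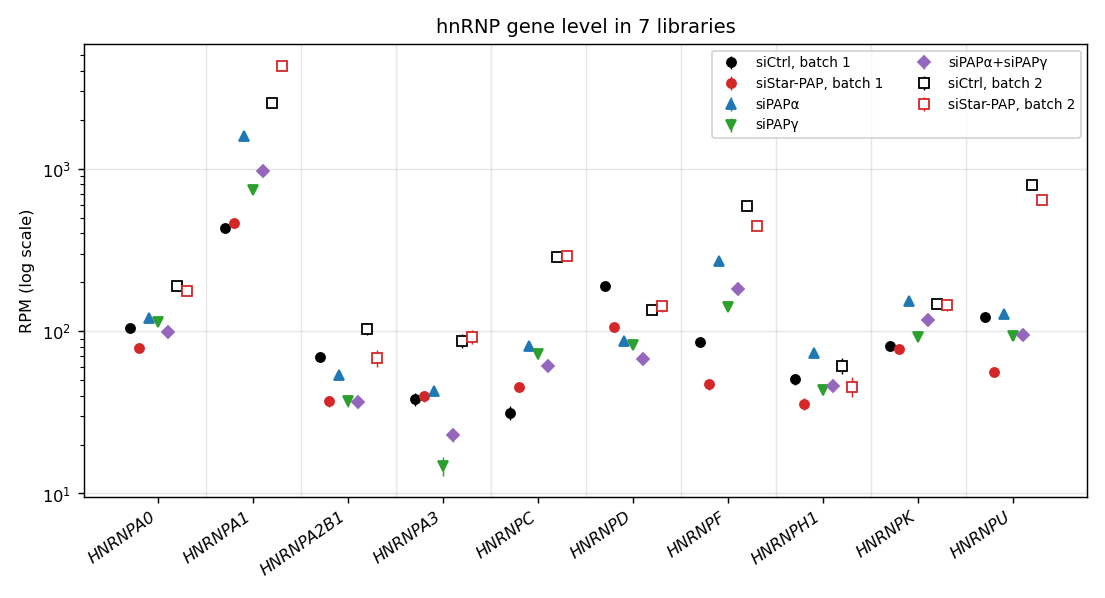
Level of the 10 hnRNP genes in RPM (log scale) in the 7 libraries, with exact Poisson 95% intervals (counting error only) that are mostly smaller than the symbols. Filled symbols are 3′READS libraries and open squares the 3′READS+ libraries of batch 2, which lie far above the others for HNRNPA1, HNRNPC, HNRNPF and HNRNPU, for HNRNPC through 1 PAS.

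Star-PAP KD was the comparison with libraries in both batches. In an edgeR quasi-likelihood fit of the 4 libraries with batch as a block, 177 of 11765 genes passed an adjusted p of 0.05 (1.5%), with 0.773% of genes called higher and 0.731% called lower. At an unadjusted edgeR p below 0.05, 898 of the 11765 genes were higher and 826 lower. Of the 10 hnRNP genes it was 1 (HNRNPA1, higher). None of the 10 hnRNP genes was called, and DESeq2 also called 0. Their median log2 fold change was 0.03, beside -0.01 for all genes tested. The fit had 1 residual degree of freedom, and the SE of the members' log2 fold changes ran from 0.32 to 0.36.

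HNRNPA1, a shuttling splicing regulator and the member with the highest RPM, had 431 RPM in siCtrl and 463 RPM in siStar-PAP of batch 1, and 2541 RPM and 4315 RPM in batch 2. Its log2 fold change in the fit was 0.79 ± 0.36 (SE, n = 2 libraries per group), with an adjusted p of 0.329 by edgeR and 0.0601 by DESeq2. It was higher in siStar-PAP in both batches, but did not pass the threshold. HNRNPC, which packages nascent RNA by binding uridine tracts, followed with a log2 fold change of 0.63 ± 0.34 (edgeR adjusted p = 0.414). HNRNPC went from 31.3 RPM to 45.5 RPM in batch 1 and from 285 RPM to 290 RPM in batch 2.

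The lowest values in that fit were those of HNRNPA2B1, which binds and transports mRNA, at -0.40 ± 0.32 (edgeR adjusted p = 0.617), and of HNRNPU, a chromatin-bound nuclear scaffold protein, at -0.36 ± 0.33 (edgeR adjusted p = 0.679). HNRNPA2B1 had 69.5 RPM and 37.0 RPM in batch 1 and 103 RPM and 68.0 RPM in batch 2. HNRNPU had 122 RPM and 55.9 RPM in batch 1 and 793 RPM and 642 RPM in batch 2. Both were lower in siStar-PAP in each batch, and neither passed the test. The other 6 members had log2 fold changes between -0.29 (HNRNPF) and 0.43 (HNRNPA3). Of 18 further hnRNP-related genes in the fit, among them PTBP1, PCBP1 and SYNCRIP, 0 were called, with a median of 0.23.

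In single batches, log2 ratios of RPM are read against the median gene, since the median of all genes lay below 0 in every KD. It was -0.45 in siStar-PAP of batch 1 and -0.17 in batch 2. The hnRNP genes had medians of -0.45 and -0.07. A single member (HNRNPU) was past a 2-fold change in batch 1, in the lower direction, where 26.2% of all genes were lower and 4.37% higher. In batch 2, 0 were past it, against 3.59% of all genes higher and 11.8% lower. Relative to the median gene, 0 were past 2-fold in either batch, where the background was 10.8% higher and 13.4% lower in batch 1, and 5.76% and 8.61% in batch 2.

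PAPα KD went with higher levels of several members. The median log2 ratio of the 10 genes was 0.37, beside -0.26 for all genes, and 8 of the 10 lay above the median gene. Of the 10, 3 (HNRNPA1, HNRNPF and HNRNPC) were more than 2-fold higher, against 8.31% of all genes, and 1 (HNRNPD) was more than 2-fold lower, against 22.2%. Relative to the median gene, 4 were higher and 0 lower, against 13.2% and 15.2%. There is no second siPAPα library, so no test bears on these differences.

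HNRNPA1 had 39998 reads (1594 RPM) in siPAPα and 4924 reads (431 RPM) in siCtrl, a 3.70-fold difference. It reached 742 RPM in siPAPγ and 975 RPM in siPAPα+siPAPγ, which are 1.72-fold and 2.26-fold the siCtrl level. All 3 libraries were above siCtrl and siStar-PAP of batch 1. The reads of HNRNPA1 are uncertain in part, since its PASs are also listed under the pseudogene HNRNPA1P10 and near-identical copies of the gene exist elsewhere in the genome.

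HNRNPF, which binds G-rich RNA and affects splicing and polyadenylation, had 85.9 RPM in siCtrl and 270 RPM in siPAPα, or 3.15-fold. It had 140 RPM in siPAPγ and 182 RPM in siPAPα+siPAPγ, whereas siStar-PAP had 46.9 RPM. HNRNPC had 80.5 RPM in siPAPα, 72.0 RPM in siPAPγ and 61.1 RPM in siPAPα+siPAPγ, against 31.3 RPM in siCtrl. The ratios of HNRNPC were 2.57, 2.30 and 1.94, and siStar-PAP of batch 1 was also above siCtrl, at 45.5 RPM. These KDs share the siCtrl library of batch 1, which enters each of these ratios. Its levels of HNRNPC and HNRNPA1 were the lowest of the 7 libraries. HNRNPK, which binds C-rich RNA and DNA through KH domains, had 152 RPM in siPAPα and 81.0 RPM in siCtrl, 1.88-fold, and was past 2-fold only relative to the median gene.

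HNRNPD was the member with the largest difference in the lower direction in siPAPα and siPAPα+siPAPγ. It encodes AUF1, which binds AU-rich elements and is known for promoting decay of such mRNAs. HNRNPD had 190 RPM in siCtrl, 87.0 RPM in siPAPα, 81.9 RPM in siPAPγ and 67.2 RPM in siPAPα+siPAPγ. These levels are 0.459, 0.432 and 0.352 of siCtrl. In siStar-PAP of batch 1 it had 106 RPM, so that all 4 KD libraries lay below siCtrl, and in batch 2 siCtrl (136 RPM) and siStar-PAP (142 RPM) had overlapping counting intervals. The 4 KD libraries made by 3′READS share their siCtrl library, and its HNRNPD level, the highest of the 7, enters each of these ratios.

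In siPAPγ, 1 member (HNRNPC) was more than 2-fold higher and 2 (HNRNPA3 and HNRNPD) were more than 2-fold lower, against 5.45% and 20.8% of all genes. Relative to the median gene these counts were 3 and 1, against 10% and 12.1%. HNRNPA3, a paralog of HNRNPA1 and HNRNPA2B1, had 14.7 RPM in siPAPγ, 22.8 RPM in siPAPα+siPAPγ, 38.0 RPM in siCtrl, 39.6 RPM in siStar-PAP and 42.5 RPM in siPAPα. It was thus lowest in the libraries with siRNA against PAPγ, at 217 reads in siPAPγ. The median log2 ratio of the 10 genes was -0.04 in siPAPγ and -0.11 in siPAPα+siPAPγ, against -0.33 and -0.39 for all genes.

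In siPAPα+siPAPγ, 2 members (HNRNPA1 and HNRNPF) were more than 2-fold higher and 1 (HNRNPD) lower, against 6.78% and 26.6% of all genes. Relative to the median gene the counts were 3 and 1, against 13.5% and 16.1%. HNRNPA2B1 stood at 53.6 RPM in siPAPα, 37.1 RPM in siPAPγ and 36.5 RPM in siPAPα+siPAPγ, all below its 69.5 RPM in siCtrl. HNRNPA0, which binds AU-rich elements of cytokine mRNAs, stayed between 78.9 RPM (siStar-PAP) and 120 RPM (siPAPα) in the 3′READS libraries. HNRNPH1, the close relative of HNRNPF, lay between 35.6 RPM (siStar-PAP) and 72.9 RPM (siPAPα). HNRNPH1 and HNRNPF were both highest in siPAPα and lowest in siStar-PAP among the 3′READS libraries, over ranges of different size. Of the 18 related genes, 4 were more than 2-fold higher and 1 lower in siPAPα, 2 and 3 in siPAPγ, and 3 and 6 in siPAPα+siPAPγ, against the same shares of all genes as above. Relative to the median gene these counts were 4 and 0, 4 and 2, and 5 and 1, so that the balance turned in siPAPγ and siPAPα+siPAPγ.

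**Figure D2:**
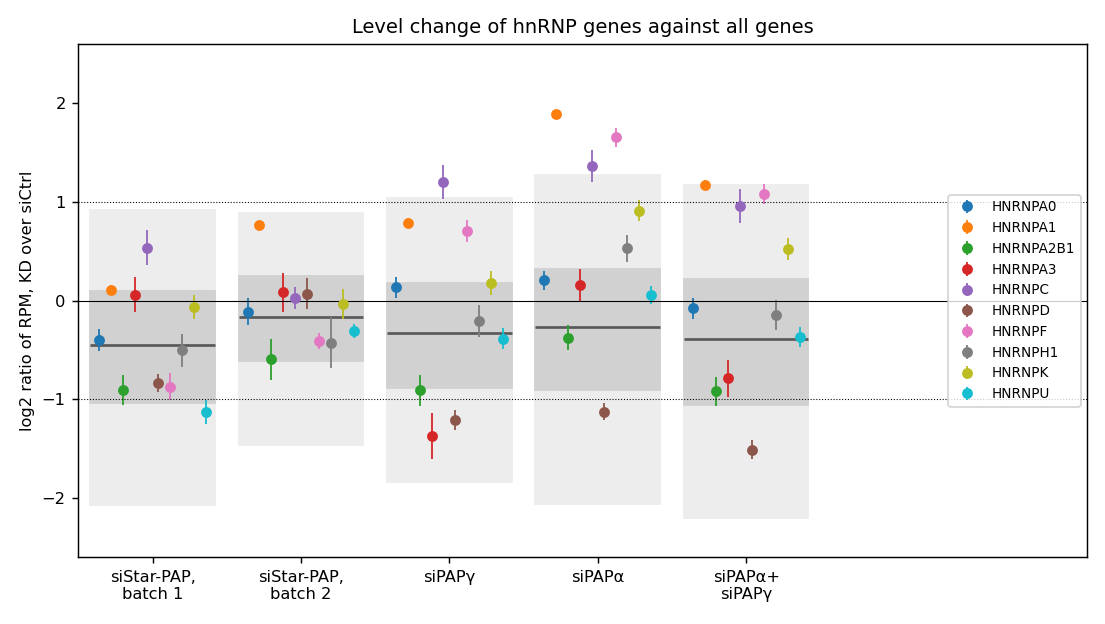
Log2 ratio of RPM in each KD over the siCtrl of its table for the 10 hnRNP genes, with 95% counting intervals. The line is the median of all genes tested, the dark box runs from the 25th to the 75th percentile and the light box from the 5th to the 95th. HNRNPA1, HNRNPC and HNRNPF lie above the light box in siPAPα, and the dotted lines mark a 2-fold change.

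PAS use was first tested in siStar-PAP over both batches, with edgeR's test of each PAS against the other PASs of its gene. It covered 33 PASs of 8 hnRNP genes and called 0 of them, where 0% of 8919 PASs of all genes were called. At an unadjusted p below 0.05 there were 0 of the 33 and 264 of all. With 1 residual degree of freedom and few reads at most PASs, such a count of 0 does not show that PAS use was alike. DESeq2 was not run on PASs. HNRNPF had 1 PAS alone, at 615 nt, in every table, and HNRNPH1 had only 1 in batch 2, so neither had PAS use to test.

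Within batches, a gene was counted where the share of any of its PASs among the reads of the gene moved by at least 10 percentage points. In siStar-PAP this held for 4 of 9 members with more than 1 PAS in batch 1 (HNRNPA2B1, HNRNPH1, HNRNPK and HNRNPU), where it held for 54.7% of all genes. In batch 2 it held for 2 of 8 (HNRNPA3 and HNRNPD), against 29.8%. In siPAPα it held for 5 of 9 (56.4% of all genes), in siPAPγ for 2 of 9 (49.9%) and in siPAPα+siPAPγ for 6 of 9 (50.8%). The share of members was above that of all genes in siPAPα+siPAPγ and below it in the other comparisons, and these shares were not tested. No member moved in both batches of siStar-PAP, where HNRNPH1, with 1 PAS in batch 2, could not. The share of all genes that moved in both was not counted, so this has no background to be read against.

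HNRNPA0 had 2 main PASs. The site at 532 nt held 32.3% of its reads in siCtrl (95% exact Clopper-Pearson interval 29.7% to 35.1%) and 71.7% in siPAPα (70.1% to 73.3%). Its share was 54.4% in siPAPα+siPAPγ, 28.8% in siPAPγ and 22.4% in siStar-PAP. The site at 1576 nt took the opposite course, with 23.8% in siPAPα, 37.3% in siPAPα+siPAPγ, 58.5% in siCtrl, 59.4% in siPAPγ and 62.0% in siStar-PAP. The 2 libraries with siRNA against PAPα thus had more use of the proximal site than the other 3 libraries made by 3′READS, and the level of the gene was 1.16-fold and 0.947-fold that of siCtrl. Both sites have AATAAA in their windows.

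HNRNPU had 6 PASs over a long 3′UTR. The first lay 39 nt from the stop codon, with AATAAA in the 40 bases upstream but not in the 30 shown. It held 27.5% of the reads in siCtrl, 5.6% in siPAPα+siPAPγ, 9.2% in siPAPα, 11.3% in siPAPγ and 11.9% in siStar-PAP. The last, at 4153 nt, held 9.8% in siCtrl and 24.3%, 26.6%, 26.6% and 21.9% in the same KDs. All 4 KD libraries had a lower share at the first and a higher share at the last site than the siCtrl library that they share. In batch 2 the first site held 12.3% in siCtrl and 14.7% in siStar-PAP, and the last 15.2% and 19.6%.

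In HNRNPK the site at 1229 nt held 7.8% of the reads in siCtrl, 16.9% in siPAPα, 23.4% in siPAPγ, 20.1% in siPAPα+siPAPγ and 19.2% in siStar-PAP. The main site at 498 nt held 87.9% in siCtrl and 65.6% to 76.9% in the KDs. In batch 2 the site at 1229 nt held 3.1% in siCtrl and 4.6% in siStar-PAP, with overlapping intervals (2.0% to 4.6% and 3.1% to 6.5%). In the fit of both batches its log2 change relative to the other PASs of HNRNPK was 0.68, with an edgeR unadjusted p of 0.0818 and an adjusted p of 1.00.

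In HNRNPH1 the proximal site at 1132 nt held 91 of 576 reads in siCtrl (15.8%) and 9 of 589 in siStar-PAP (1.5%). It held 3.5% in siPAPα, 5.9% in siPAPγ and 4.8% in siPAPα+siPAPγ, and it is not listed in the table of batch 2. The 4 KDs were all below the siCtrl library that they share. HNRNPC had a proximal site at 286 nt with 19.8% of its reads in siCtrl, 24.7% in siPAPγ, 25.6% in siStar-PAP, 33.6% in siPAPα and 36.8% in siPAPα+siPAPγ. As in HNRNPA0, the share at the proximal site was highest in the 2 libraries with siRNA against PAPα. HNRNPA1 had 88.1% of its reads at 568 nt in siCtrl and 90.8% to 98.0% in the KDs.

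HNRNPA2B1 had most of its reads at 672 nt, with 69.3% in siStar-PAP, 83.4% in siCtrl, 90.7% in siPAPγ and 90.9% in siPAPα. A distant site, 8354 nt from the stop codon and beyond the canonical transcript, held 4.8% (38 reads) in siCtrl and 17.8% (109 reads) in siStar-PAP of batch 1. That site is listed in the batch 1 table alone. HNRNPA3 had the most PASs, up to 13 in a table, and the only one upstream of the last exon, in an intron. This site held 0 to 39 reads, and its share ran from 1.6% to 5.5% in the 3′READS libraries. It was 0 of 439 reads in siCtrl of batch 2, where a limit of 3 reads allows a share of up to 0.683%, and the exact 95% interval reaches 0.837%. HNRNPD kept 75.5% to 82.3% of its reads at 1363 nt in the 3′READS libraries.

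**Figure D3:**
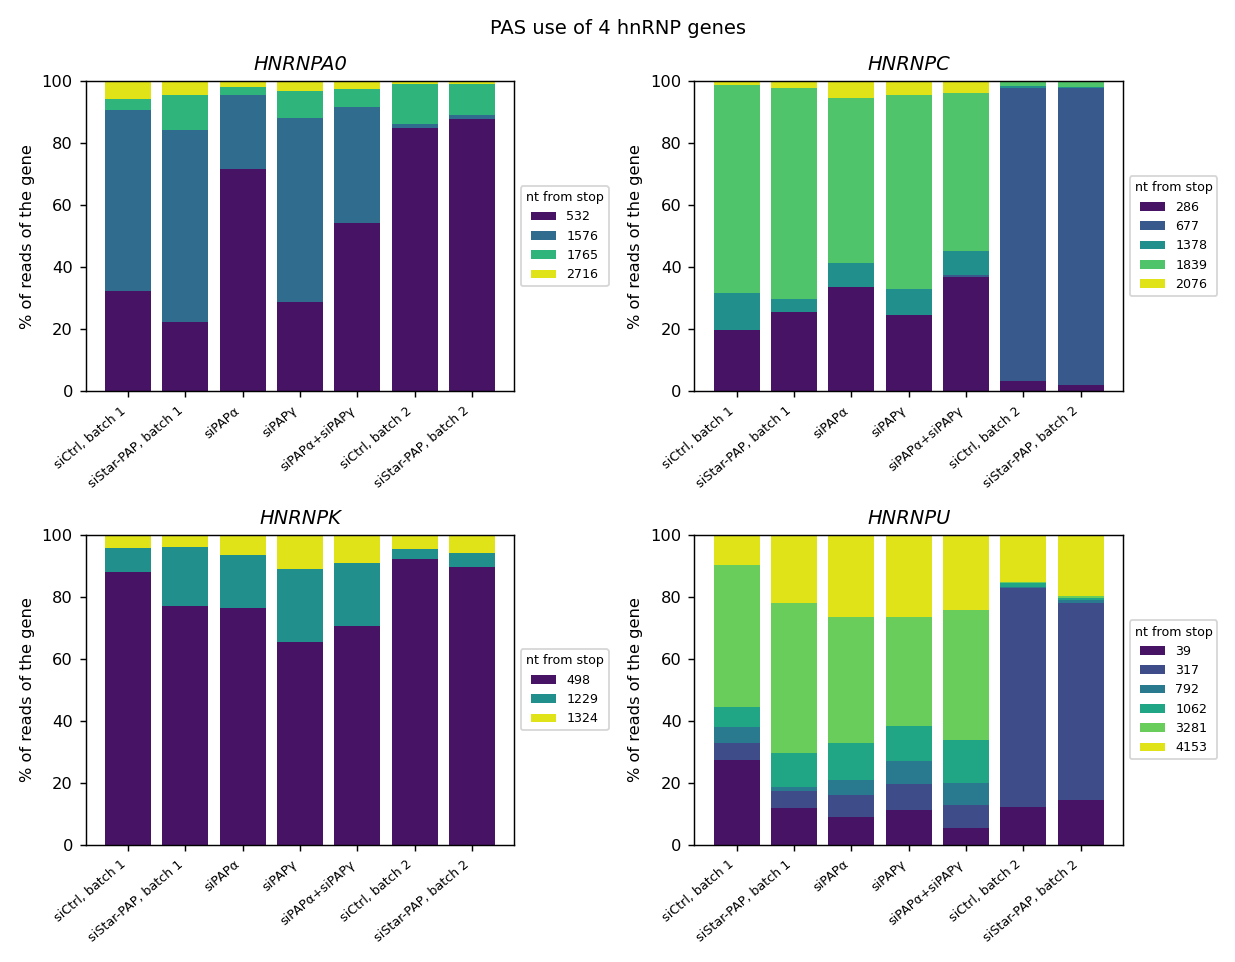
Share of the reads of HNRNPA0, HNRNPC, HNRNPK and HNRNPU at each PAS, in percent, in the 7 libraries. Colours run from the PAS nearest to the stop codon (dark) to the farthest (light), with distances in nt. The proximal site of HNRNPA0 is largest in siPAPα among the 3′READS libraries, and batch 2 differs from batch 1 in HNRNPA0, HNRNPC and HNRNPU.

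The direction of 3′UTR change was measured by the relative expression difference (RED), which is the log2 ratio of distal to proximal reads in KD minus that in siCtrl, over the 2 most-read last-exon PASs. In siStar-PAP of batch 1, 4 of 9 members had RED above 1 (distal higher) and 0 below -1 (proximal higher), against 25.2% and 23.5% of all genes. In batch 2 it was 1 and 0 of 8, against 20.7% and 18.1%. In siPAPα, 3 were distal and 4 proximal of 9, against 31.9% and 20.9%. In siPAPγ, 3 and 2 of 9 were, against 24% and 21.8%, and in siPAPα+siPAPγ, 3 and 4 of 9, against 36.1% and 21.2%. HNRNPH1, HNRNPK and HNRNPU were the distal members in all 4 KDs made by 3′READS, with RED of 3.60, 1.49 and 1.08 in siStar-PAP. These KDs share 1 siCtrl library, which enters each of these values. In batch 2, with its own siCtrl, RED was 0.41 for HNRNPK and 0.53 for HNRNPU, over other pairs of sites. HNRNPH1 had 1 PAS there and no RED. HNRNPA0, HNRNPA1, HNRNPA2B1 and HNRNPC were the proximal ones in siPAPα, at -2.45, -1.25, -1.18 and -1.10, and in siPAPα+siPAPγ. In siPAPγ the proximal ones were HNRNPA1 at -2.75 and HNRNPA2B1 at -2.25, the latter with 6 distal reads. HNRNPA2B1 changed side, with 2.16 in siStar-PAP of batch 1, over the sites at 672 nt and 8354 nt that were also its pair in siPAPα and siPAPγ. In siPAPα+siPAPγ its pair was another, with the distal site at 1576 nt (RED of -1.22). The share at 1576 nt was 10.3% in siCtrl and 6.4% in siStar-PAP of batch 1, so the change of side holds for the first pair only.

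The comparison of the 3′READS+ libraries of batch 2 with the 3′READS libraries of batch 1 gave the largest differences of these genes. It was added after the data were seen, and protocol and batch cannot be told apart. In the batch term of the gene fit, 8 of 10 members were called higher in 3′READS+ and 0 lower, against 24.4% and 25.9% of all genes (edgeR adjusted p below 0.05). Their median log2 fold change was 1.20, beside -0.07 for all genes.

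The 4 highest members in this term were at 3.20 ± 0.36 (SE) for HNRNPU, 3.10 ± 0.35 for HNRNPF, 3.02 ± 0.36 for HNRNPC and 2.98 ± 0.39 for HNRNPA1, with edgeR adjusted p of 1.79e-06, 1.74e-06, 3.35e-06 and 8.20e-06. The value of HNRNPC rests on 1 PAS, the site at 677 nt after the run of A, which held 1358 of its 1439 reads in siCtrl of batch 2. Without that site HNRNPC had a log2 fold change of -1.31 ± 0.39 (edgeR adjusted p = 0.0101), with 16.0 RPM in siCtrl of batch 2 against 31.3 RPM in batch 1. Then 7 members were called higher and 1 lower. The site was picked as the most-read of batch 2. It is not listed in the batch 1 table, so leaving it out took reads from batch 2 alone. This value shows how far HNRNPC rests on the site, and not that the gene is lower in 3′READS+. HNRNPU without its most-read PAS of batch 2, at 317 nt, stayed higher at 1.68 ± 0.34 (edgeR adjusted p = 0.000821). In RPM of siCtrl over all PASs the differences were 9.10-fold for HNRNPC, 6.85-fold for HNRNPF, 6.50-fold for HNRNPU and 5.90-fold for HNRNPA1. Of all genes, 24.1% were more than 2-fold higher in siCtrl of batch 2 and 37.2% more than 2-fold lower. HNRNPA3, HNRNPA0, HNRNPK and HNRNPA2B1 followed at 1.30, 1.11, 0.97 and 0.81. HNRNPD (0.06, edgeR adjusted p = 0.896) and HNRNPH1 (0.41, edgeR adjusted p = 0.319) did not pass.

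**Figure D4:**
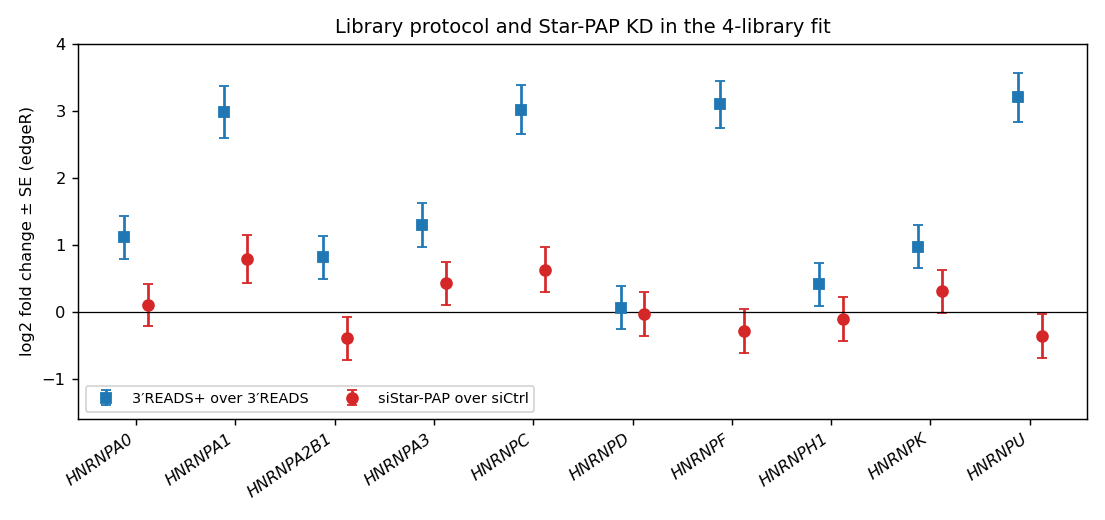
Log2 fold change of the 10 hnRNP genes in the edgeR fit of 4 libraries, with SE. Squares are 3′READS+ (batch 2) over 3′READS (batch 1) and circles are siStar-PAP over siCtrl. HNRNPA1, HNRNPC, HNRNPF and HNRNPU lie near 3 for the protocol, HNRNPC through 1 PAS without which it lies at -1.31, and no circle passed the adjusted threshold.

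PAS use of the members also differed between the protocols. The most-read PAS was another one in siCtrl for 4 of 9 members (HNRNPA0, HNRNPA3, HNRNPC and HNRNPU), against 31.7% of all genes, and in siStar-PAP for 5 of 9, with HNRNPD added, against 31.2%. In the PAS fit, 11 of 33 hnRNP PASs differed between protocols (edgeR adjusted p below 0.05), against 23.9% of all PASs. With PASs listed in 1 table kept, with 0 reads in the other, 23 of 40 were called, against 42.2% of all. A difference at such a PAS is built in, so this count does not bear on the protocols. An unlisted PAS need not lack reads. At 1 such PAS of HNRNPA1, the siCtrl library of batch 1 had 10 reads in the double KD table. HNRNPU had 70.4% of its reads at 317 nt in siCtrl of batch 2 and 5.5% in batch 1, while the site at 3281 nt, with AATAAA, went from 45.7% in batch 1 to 0.4%. Their log2 changes relative to the other PASs of HNRNPU were 2.50 (edgeR adjusted p = 3.50e-05) and -4.43 (edgeR adjusted p = 2.28e-06). The site at 317 nt has neither AATAAA nor ATTAAA in the window shown.

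HNRNPC differed most in its sites. Its site at 677 nt, the one after the run of A, held 1358 of 1439 reads (94.4%) in siCtrl of batch 2, and 1180 of 1233 (95.7%) in siStar-PAP. It is not listed in the batch 1 table, and in the double KD table it had 1 read in the siCtrl library and 10 in siPAPα+siPAPγ (0.3% and 0.9%). The site at 1839 nt, which held 67.3% in siCtrl of batch 1, had 1.3% in batch 2. In HNRNPA0 the site at 532 nt held 85.0% and 87.7% in batch 2. The site of HNRNPD at 2003 nt had a share of 8.0% in batch 1 siCtrl and 12.1% in batch 1 siStar-PAP, and of 41.3% and 48.4% in batch 2. For HNRNPA1 the site at 933 nt went from 11.9% to 0.3% in siCtrl.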

How the data were processed

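PASS reads of 7 libraries from HEK293 cells were analysed. Reads were aligned by the authors with Bowtie2 to hg19 (per the labels). They retained unique alignments whose ends carried 2 or more untemplated Ts, merged sites less than 24 nt apart, and deposited the read counts at each PAS of a RefSeq gene without normalization. Sense PASs were summed per gene. A PAS listed under several genes (521 in batch 1) was kept once. RPM used the PASS read totals that the study gives. The columns without a mapping to a sample were 0.

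The hnRNP genes and all lists were chosen with earlier results of these data known. All 10 members were named, with PASs holding at least 10% of the reads of a member in some library, and others where a count needed them. A gene level was counted with more than 50 reads in the pair and a change above 2-fold, and PAS shares with at least 50 reads of the gene in each library. siStar-PAP and siCtrl of both batches were fitted with edgeR 4.0.16 (quasi-likelihood test, TMM factors, Benjamini-Hochberg over all features, diffSpliceDGE for PASs, matched within 24 nt) with batch as a block, as the labels give batch and protocol, which leaves 1 residual degree of freedom. Replicates may be technical, and p-values measure only the spread between these libraries. DESeq2 1.42.0, other scalings, filters, merged PASs and left-out batches were alternatives. The run of A and the protocol comparison were added after seeing the data. Each fit was tested on simulated data, in which the PAS fit missed most of the changes put in and the gene fit missed some. A count of 0 called members thus does not show that levels or PAS use were alike. Exact intervals (95%) and the limit of 3 reads for a count of 0 cover counting error only, as reads had no molecular identifiers. Upstream antisense PASs were left out of levels. R 4.3.3 and Python 3.11.15 were used.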

Additional observations from a re-analysis of the deposited data

Results flagged for a closer look

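HNRNPD had opposite directions in the 2 batches of siStar-PAP, with a log2 ratio of RPM to siCtrl of -0.84 in batch 1 and 0.069 in batch 2, and relative to the median gene of -0.39 and 0.24. Each batch had 1 library per condition, and the difference between the batches was not tested. The protocol and its batch cannot be told apart.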

How the results depend on the processing

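Under all alternatives of the fit over both batches, 0 of 10 hnRNP genes and 0 of their PASs were called for siStar-PAP. These counts of 0 do not show that levels or PAS use were alike. Calls over all genes changed from 177 to 74 with PASS totals as library sizes, 429 without the expression filter and 285 with DESeq2, and without the replicate block they fell to 0 (40 lower and 14 higher genes at an unadjusted p below 0.05). The block changed no call of an hnRNP gene. PASs called over all genes went from 0 to 18 with at least 10 reads in each library, where 1 hnRNP PAS (HNRNPK at 1229 nt) had an unadjusted p below 0.05. With PASS totals the median log2 change of the members was -0.32, that of HNRNPA0 -0.26 and that of HNRNPK -0.047, because no centring on the median gene was applied. With single batches left out, the median of the members ran from -0.0036 to 0.096, and HNRNPD from -0.39 to 0.24, the latter without batch 1. Keeping PASs of 1 table raised the PASs that differ by protocol to 23 of 40 hnRNP PASs and 5135 of all. That rise is built in, as such PASs enter with 0 reads in the other table. Without its site at 677 nt, HNRNPC turned to -1.31 between protocols, with 1 hnRNP gene called lower in place of 0, an alternative chosen after seeing the data. It took reads from batch 2 alone, so that call does not show a lower level. For levels in single tables, under the settings listed, counts differed by over 1.5 times as follows. In siStar-PAP of batch 1, 1 member was higher and 0 lower with TMM or DESeq2 factors, 0 lower relative to the median gene and 4 lower past 1.5-fold, and in batch 2, 1 was higher and 1 lower past 1.5-fold. In siPAPα, 0 were lower with totals of the table, TMM, DESeq2 factors or relative to the median gene. In siPAPγ, 2 were higher and 1 lower with totals of the table, 3 higher and 0 lower with TMM, 3 and 1 with DESeq2 factors or relative to the median gene, and 3 higher past 1.5-fold. In siPAPα+siPAPγ, 3 were lower past 1.5-fold. With a move of 20 percentage points, members with a moved PAS were 2 in siPAPα+siPAPγ, 1 in siPAPγ, 1 in siPAPα and 0 in each batch of siStar-PAP, and with PASs over 5% alone, 1 in siStar-PAP of batch 2. For RED, 1 member was proximal in siStar-PAP of batch 1 over the first and last PAS, and 5 were distal in batch 2 past 0.5. The median of all genes moved by over 0.1 (log2) with TMM in every comparison. It moved to 0.03 and 0.01 in siStar-PAP of batches 1 and 2, 0.08 in siPAPα, 0.05 in siPAPγ and 0.05 in siPAPα+siPAPγ. TMM factors, unlike PASS totals, centre on the bulk of the genes. Why the median lay below 0 with PASS totals was not tested. Of 141 such comparisons, 102 stayed within 1.5 times or the spread, and 39 did not. Among members with several PASs, the fewest reads behind PAS shares were 217, of HNRNPA3 in siPAPγ.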

Other observations

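An upstream antisense PAS was listed for HNRNPD alone among the 10 genes, at chr4:83296058 on the plus strand (hg19). It had 37 reads (3.24 RPM) in siCtrl and 63 reads (3.35 RPM) in siPAPα+siPAPγ, and 18 reads (3.57 RPM) in siCtrl and 9 reads (2.12 RPM) in siStar-PAP of batch 2. These counts overlap within counting error.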
